A study of Mus musculus with 2 samples.

Results

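The cells described here are arterial endothelial cells, the lining of the abdominal aorta and its arterial branches, measured by droplet single-cell RNA-seq in 2 libraries. They were chosen by a rule on raw UMI counts (UMIs are molecular tags, so each counts 1 captured RNA molecule): Pecam1, Cdh5 and Egfl7 summed to 3 or more, the arterial genes Gja5, Bmx, Efna5 and Cytl1 summed to 3 or more, Gpihbp1 was 0, Selp at most 1, Prox1 with Mmrn1 at most 1, Ptprc at most 1, Dcn at most 5 and Myh11 at most 2. The rule selected 540 of the 35848 cells that passed the quality filter (500 or more UMIs, 200 or more genes, under 20% mitochondrial UMIs), 315 of 11288 in the Control library and 225 of 24560 in the AngII+HS library. The libraries came from male C57BL/6J mice aged 5 months, and the suprarenal part of the abdominal aorta was taken on day 28. Control mice received saline, and AngII+HS mice received angiotensin II at 1500 ng/kg/min from an implanted minipump together with drinking water containing 0.9% NaCl and 0.2% KCl. The series describes each library as the pooled aortas of 5 mice, while an extraction label gives 1 control mouse and 2 treated mice. The deposited barcode lists are recorded under each other's sample, and the groups were taken from the record of the count matrices. There was 1 library per group, so treatment and library cannot be told apart, no test between groups was possible and no p-value is given.

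Arterial endothelium faces fast pulsatile flow. Laminar shear is sensed by the cells and maintains the transcription factors Klf2 and Klf4 and, with them, genes for nitric oxide, prostacyclin and anticoagulant proteins. In large elastic arteries the endothelium also makes elastin, fibulins and collagens for the layer beneath it, and its arterial identity is kept by Notch ligands, Sox17 and ephrin-B2. Angiotensin II infusion raises blood pressure, and the model is used to produce abdominal aortic aneurysm.

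The genes of the rule chose the members and are given as description. Cytl1, a small secreted protein and the most abundant of the 4 arterial genes, had a UMI in 312 of the 315 Control members and in 183 of the 225 AngII+HS members, with a level of 7138 CPM (counts per 1000000 UMIs, all UMIs of the group's cells pooled) in Control and 1698 CPM in AngII+HS. Gja5, the connexin-40 gene of arterial endothelium, had a UMI in 187 and 133 members, Bmx, a non-receptor tyrosine kinase, in 203 and 137, and the ephrin gene Efna5 in 233 and 182. All 4 were seen together in 120 Control and 69 AngII+HS members. Close to the limit, 13 Control and 31 AngII+HS members held 3 or 4 UMIs of these genes, and a further 22 and 44 cells that met every other term held 1 or 2. The Selp limit removed many cells. Among those that had passed the arterial sum and had no Gpihbp1 it took out 234 of 549 in Control and 247 of 472 in AngII+HS.

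Some members were not plainly endothelial. In AngII+HS, 8 members carried 10 or more UMIs of the neuronal genes Tubb3, Npy, Rtn1, Uchl1 and Sncg, and these 8 cells held 27.1% of all member UMIs of that library. In 5 of the 8, with 38036 to 71737 UMIs each, Pecam1 and Cdh5 together had at most 1 UMI and Gja5, Bmx and Cytl1 were all at 0, so these cells entered through Egfl7 and Efna5. Of the AngII+HS members 25, 1 of them among those 8, carried 5 or more UMIs of the leukocyte genes Tyrobp, Fcer1g, Lcp1, Plek and Cd52. Control had 1 and 2 such members. Without the cells over either limit, 312 Control and 193 AngII+HS members remained, 505 in all. The 2 limits were set after the data had been seen, and values are given for these 505 cells unless all 540 are named. The highest Scrublet (doublet) scores of each library fell on 5 of the 312 Control members kept and 34 of the 193 AngII+HS members kept. Of the members left out they fell on 2 of 3 and 31 of 32. Removing these scores was tried on the 540 cells only, so their part in values of the 505 was not tested. Among the cells that stayed, a single AngII+HS cell also stood apart, with 4144 UMIs of Igkc, the immunoglobulin kappa constant gene, among 15051.

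**Figure D1:**
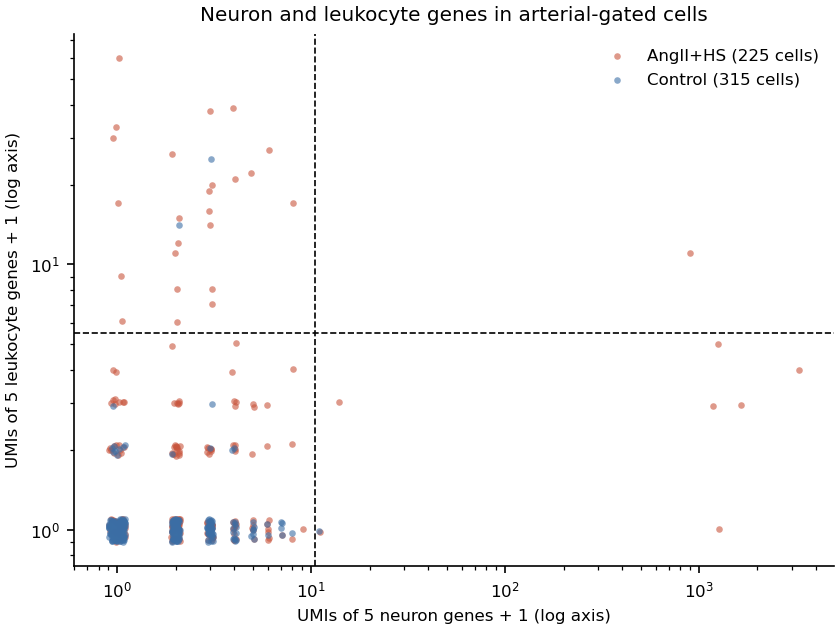
Each point is 1 of the 540 arterial endothelial cells, plotted by its UMIs of 5 neuronal genes (x axis, plus 1, log scale) and of 5 leukocyte genes (y axis, plus 1, log scale), with dashed lines at the limits of 10 and 5 UMIs and points shifted slightly so that they do not hide each other. Past either line lie 3 of 315 cells in Control and 32 of 225 in AngII+HS.

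The 505 cells held 1126592 UMIs in Control (median 3088 per cell) and 789406 in AngII+HS (median 3594). Their most abundant mRNAs outside ribosomal and mitochondrial genes included, in both libraries, the matrix Gla protein gene Mgp (10640.1 and 9339.9 CPM), the tetraspanin-like Tm4sf1 (4018 and 4838 CPM), the elastin gene Eln (3774 and 4733 CPM) and the phosphatase Ptprb (2926 and 1885 CPM). The label was checked against genes outside the rule. Capillary cells had Gpihbp1 at 2 or more (97 Control and 230 AngII+HS cells) and venous cells Selp at 2 or more (24 and 203 cells), both without the arterial genes. Of 12 genes listed for conduit (large-artery) endothelium, all 12 were higher in the Control members than in both capillary and venous cells, with median log2 ratios of 4.24 and 2.91. In AngII+HS, 11 and all 12 were higher, with medians of 4.17 and 3.62. Arterial identity genes (Notch ligands, Sox17 and others, 20 listed) stood above venous cells in 15 of 19 measured genes in Control and in 20 of 20 in AngII+HS, while against capillary cells 12 and 13 of 20 were higher. None of 13 capillary genes was higher in the members than in capillary cells in either library. Of the 20 arterial identity genes, 5 were past 2-fold lower than in capillary cells in Control (median 0.24) and none in AngII+HS (0.87). Of 12 venous genes, 3 were higher in the members than in venous cells in Control and 2 in AngII+HS. Against capillary cells, 8 of 11 measured venous genes were higher in Control (median 2.13) and 5 of 11 in AngII+HS (-0.01). Arteriole genes were higher than in capillary cells in 6 of 9 and 6 of 10, and than in venous cells in 7 of 8 and 9 of 10. By the conduit and capillary lists, and by arterial identity against venous cells, the label held. The barcode lists of the 2 libraries, with 11448 and 24804 entries, shared 67 barcodes.

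The members were a smaller part of the endothelium in AngII+HS. They made up 34.3% of 919 endothelial cells in Control (95% exact binomial interval 31.2 to 37.4) and 14.0% of 1610 in AngII+HS (12.3 to 15.8), and 33.9% and 12.0% after the neuron- and leukocyte-rich members were left out. Capillary cells were 10.6% and 14.3% of the same endothelial cells and venous cells 2.61% and 12.6%. The share rests on Cytl1 itself and on the Selp limit, and dissociation, gating and the makeup of the vessel cannot be told apart in it. With Cytl1 left out of the arterial sum it was 23.7% in Control and 11.0% in AngII+HS. These and all other intervals here cover counting error only.

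Between groups, each gene was compared as the log2 ratio of its CPM in AngII+HS over Control, and a gene past 2-fold is called higher or lower. Free RNA in droplets gives every cell some UMIs of genes it does not express, so each library's own T and B cells (115 in Control, 1359 in AngII+HS) serve as background, and a gene whose T and B cell CPM was under 25% of its arterial CPM in both libraries is said to stand over that background. Among the 5932 genes with 50 or more UMIs, 237 (4.00%) were higher and 211 (3.56%) were lower, with a median log2 ratio of 0.02. Of the 979 genes that stood over the background, 60 were higher (6.13%) and 92 lower (9.40%), with a median of -0.16. Among all 540 cells the counts were 969 higher (13.5%) and 393 lower (5.47%) of 7191 genes, and Npy, Igkc, Jchain, Basp1 and Tubb3 were among the 15 genes furthest above Control there. Npy, a neuropeptide gene, went from 0 to 3855 CPM in that pool. In the 505 cells 12 of the 15 highest genes with 200 or more UMIs had a T and B cell CPM of 25% or more of the arterial one in AngII+HS. Sfrp2, a secreted Wnt modulator known from fibroblasts, was among the 15 at 9.76 and 816 CPM, with 230 of its 644 AngII+HS UMIs in 1 cell and a UMI in 8 and 38 cells. Counts in the gene lists below are to be read beside the shares over all genes. These were 4.00% higher and 3.56% lower in the 505 cells, and 13.5% and 5.47% in all 540.

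**Figure D2:**
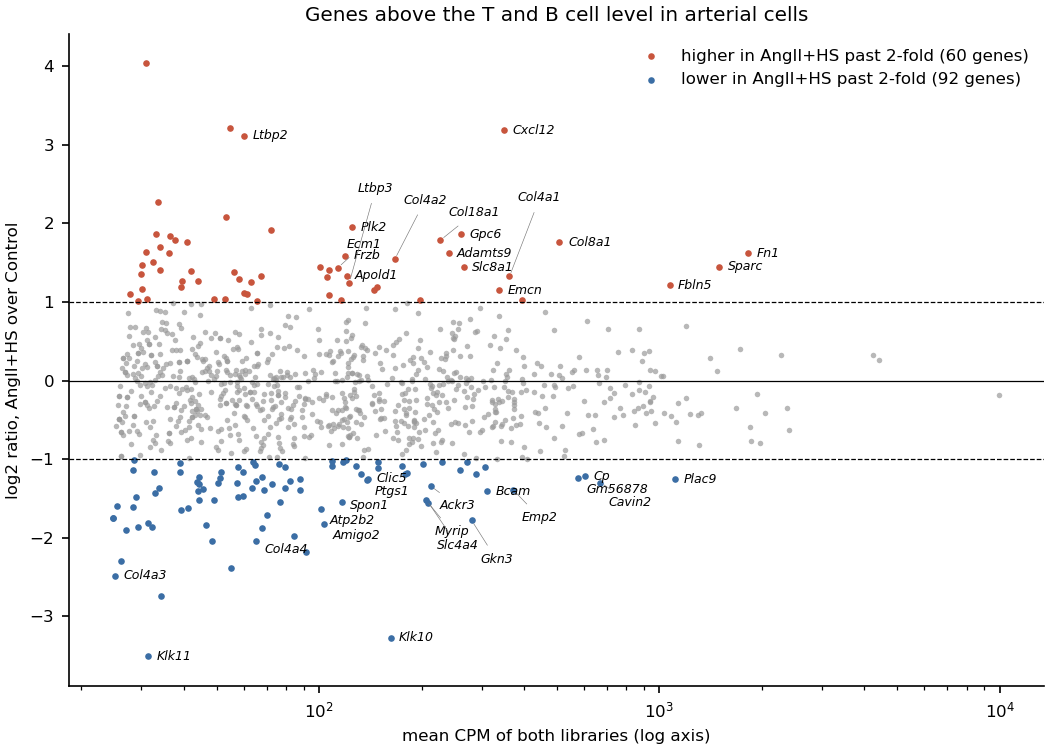
For the 979 genes over the T and B cell background in the 505 cells, the mean CPM of both libraries (x axis, log scale) is plotted against the log2 ratio of AngII+HS over Control (y axis). Red points are the 60 genes past 2-fold higher and blue points the 92 past 2-fold lower, with Cxcl12 and Ltbp2 high and Klk10 and Klk11 low.

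The gene furthest below Control among those with 200 or more UMIs was Klk10, a secreted member of the kallikrein-related protease family that endothelium makes under stable laminar flow. It had 331 UMIs in Control, in 119 of 312 cells, and 24 in AngII+HS, in 11 of 193 cells. Its level was 294 and 30.4 CPM, a log2 ratio of -3.27 (95% interval -3.94 to -2.67). No UMI of Klk10 was found in capillary, venous or T and B cells of either library, where a count of 0 allows up to 5.63 and 2.61, 29.7 and 2.26, and 5.01 and 0.528 CPM in Control and AngII+HS. The neighbouring family member Klk11 had 65 and 4 UMIs (57.7 and 5.07 CPM, log2 ratio -3.51). Gkn3, a gastrokine gene known as a marker of mouse arterial endothelium, had 489 and 100 UMIs (434 and 127 CPM, log2 ratio -1.78, -2.10 to -1.46). It too was hardly seen elsewhere, with no UMI in venous cells, 1 UMI in the AngII+HS capillary cells and 1.67 and 0.176 CPM in T and B cells.

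The 250 bases before the start of Klk10 and Gkn3, the lowest genes with 200 or more UMIs among all 540 cells that the promoter table held, are printed to show what stands in front of genes with this pattern. Beside them are those of Cxcl12 and Plk2, the highest genes over the T and B cell background with 200 or more UMIs, chosen after their values were seen because the highest genes of the 540 cells with a promoter in the table were Npy and Jchain. The sequences are RefSeq's (build GRCm38.p6), 5′ to 3′ on the gene's strand, and capitals mark each match, on either strand, to CCACCC (the core bound by Klf2 and other Krüppel-like factors), TTCNNNGAA (the STAT core) or GAAANNGAA (the interferon response core).
Klk10 (chr7:43780804-43781053, plus strand): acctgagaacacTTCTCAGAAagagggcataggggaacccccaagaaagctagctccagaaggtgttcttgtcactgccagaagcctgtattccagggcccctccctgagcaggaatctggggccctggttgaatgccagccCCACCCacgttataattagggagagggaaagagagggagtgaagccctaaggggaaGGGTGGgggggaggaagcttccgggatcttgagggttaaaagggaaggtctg
Gkn3 (chr6:87388936-87389185, minus strand): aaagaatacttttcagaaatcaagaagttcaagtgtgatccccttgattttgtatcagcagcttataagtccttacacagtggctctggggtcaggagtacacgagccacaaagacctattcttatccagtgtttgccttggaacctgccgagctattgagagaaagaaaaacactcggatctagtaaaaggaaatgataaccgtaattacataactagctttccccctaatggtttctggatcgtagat
Cxcl12 (chr6:117168285-117168534, plus strand): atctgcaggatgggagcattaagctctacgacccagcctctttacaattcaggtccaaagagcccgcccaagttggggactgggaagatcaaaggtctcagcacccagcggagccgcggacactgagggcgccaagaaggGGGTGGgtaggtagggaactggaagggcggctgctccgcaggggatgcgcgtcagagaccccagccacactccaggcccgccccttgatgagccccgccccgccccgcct
Plk2 (chr13:110394794-110395043, plus strand): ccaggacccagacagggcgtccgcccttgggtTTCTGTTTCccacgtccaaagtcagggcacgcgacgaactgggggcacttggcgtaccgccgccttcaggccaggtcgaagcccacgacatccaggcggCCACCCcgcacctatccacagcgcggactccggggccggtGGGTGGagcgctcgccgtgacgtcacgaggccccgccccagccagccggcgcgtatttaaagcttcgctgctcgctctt
Klk10 had 2 CCACCC and 1 TTCNNNGAA, Gkn3 none of the 3, Cxcl12 1 CCACCC, and Plk2 2 CCACCC and 1 GAAANNGAA. Of 32536 promoter windows of this length, 28.1% held CCACCC, 7.04% TTCNNNGAA and 7.15% GAAANNGAA, so these letters are common and a match is only a description.

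Genes that laminar flow maintains were lower as a list. Of 18 measured, 3 were past 2-fold lower and 1 higher, with a median log2 ratio of -0.68 against 0.02 for all genes. Klf2, the transcription factor that leads the response to shear, had 2814 and 1141 UMIs (2498 and 1445 CPM, log2 ratio -0.79, -0.89 to -0.69), and its partner Klf4 was at 1247 and 912 CPM (-0.45). Nos3, the endothelial nitric oxide synthase, was at 444 and 223 CPM (-0.99, -1.25 to -0.74), the thrombin receptor thrombomodulin, Thbd, at 234 and 127 CPM (-0.89), and the prostacyclin synthase Ptgis at 288 and 153 CPM (-0.91). Each of these 5 stayed within 2-fold in the 505 cells, and Klf2, Nos3, Thbd and Ptgis were past it in all 540 (-1.21, -1.44, -1.36 and -1.39), where 10 of the 18 were lower and 1 higher (-1.13). Past 2-fold were Klk10, the cyclooxygenase Ptgs1 (194 and 81.1 CPM, -1.26) and the arginine-recycling enzyme Ass1 (87.9 and 41.8 CPM, -1.07). With cells weighted equally Ptgs1 was at -0.76, and among the 540 cells Ass1 was at -0.76 with Dcn, Myh11 and Ptprc at 0, so both calls depended on these choices. The exception was Hmox1, heme oxygenase 1, at 20.4 and 77.3 CPM (1.92), below its T and B cell level of 25.1 and 295 CPM. Klf2 also has a T and B cell level of its own, 404 and 237 CPM, and was thus lower in AngII+HS there too. A lower Klf2 was therefore not particular to the arterial cells, while Nos3 was at 1.67 and 0.704 CPM in T and B cells.

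The same genes could be followed cell by cell. After every cell was thinned to 1000 UMIs (300 Control and 184 AngII+HS cells, 12 and 9 shallower cells left out), Klk10 had a UMI in 18.3% and 2.72% of cells, Gkn3 in 26.7% and 9.78%, Klf2 in 80.7% and 64.7%, and Nos3 in 35.0% and 22.8%. Before thinning, Klk10 had a UMI in 38.1% and 5.70% of cells. In T and B cells thinned to the same 1000 UMIs (115 and 1350 cells), Klk10 and Gkn3 had none and Klf2 was seen in 29.6% and 21.3%. At equal depth all 4 genes were thus seen in a smaller share of the AngII+HS cells.

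**Figure D3:**
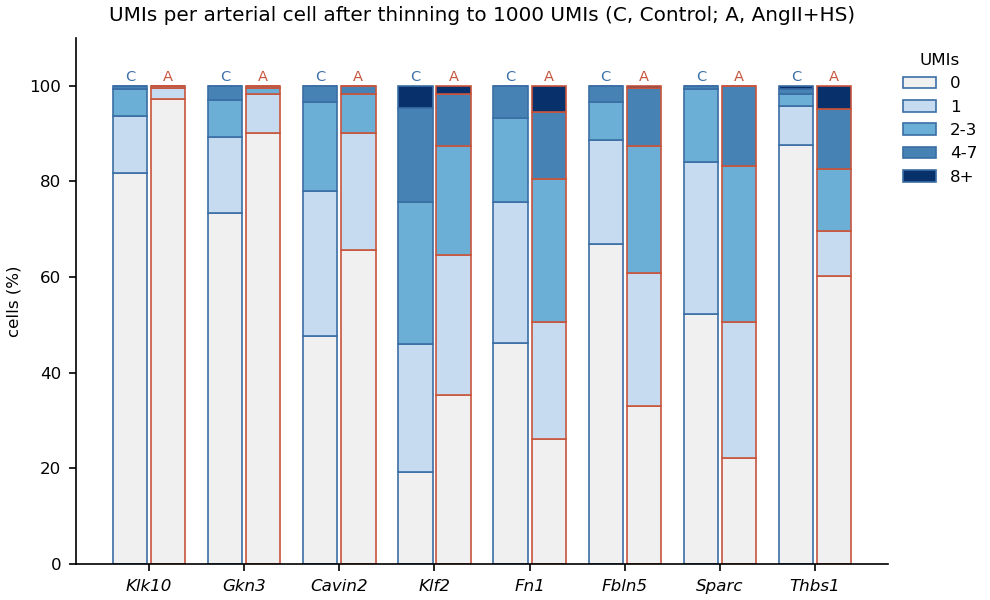
Stacked bars give the percent of arterial endothelial cells with 0, 1, 2 to 3, 4 to 7 or 8 and more UMIs of each gene after thinning to 1000 UMIs per cell, for Control (C, 300 cells) and AngII+HS (A, 184 cells). Klk10, Gkn3, Cavin2 and Klf2 were seen in fewer AngII+HS cells, and Fn1, Fbln5, Sparc and Thbs1 in more.

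Matrix genes went the other way. Of 19 genes of elastic fibres and interstitial matrix, 9 were past 2-fold higher and none lower (median log2 ratio 0.98), and of 13 basement membrane genes 5 were higher and none lower (0.73). Over all genes 4.00% were higher and 3.56% lower. In all 540 cells it was 4 higher and 1 lower of 20 (0.49), and 4 higher and 2 lower of 14 (0.34). With Cytl1 left out of the arterial sum of the 540 cells, the basement membrane median was 0.26. Of 7 capillary genes 3 were higher and 1 lower (0.41), with sums of 2077 and 2876 CPM. In all 540 cells 2 of the 7 were higher and 1 lower (-0.21), and their part in the matrix lists was not tested. Fn1, fibronectin, had 1008 and 2171 UMIs (895 and 2750 CPM, log2 ratio 1.62, 1.51 to 1.73), with T and B cells at 105 and 324 CPM. It was seen in 53.7% of thinned Control cells and 73.9% of thinned AngII+HS cells, against 6.96% and 19.5% of thinned T and B cells. Both the pooled level and the share of cells were therefore above Control. Fbln5, the fibulin that assembles elastic fibres, was at 646 and 1496 CPM (1.21, 1.08 to 1.35). Col8a1, a short-chain collagen of the subendothelium, was at 232 and 785 CPM (1.76, 1.55 to 1.98), with 138 of its 620 AngII+HS UMIs in 1 cell and a ratio of 1.71 when each cell counted equally. The latent TGF-beta binding proteins Ltbp2 and Ltbp3 were at 12.4 and 108 CPM (3.12) and at 72.8 and 172 CPM (1.24). In contrast, the pooled levels of the most abundant genes of the list stayed close to Control. Eln was at 3774 and 4733 CPM (0.33) and Mgp, an inhibitor of calcification, at 10640.1 and 9339.9 CPM (-0.19). For Eln, 673 of 3736 AngII+HS UMIs lay in 1 cell, and the ratio was 0.09 with cells weighted equally. Fewer thinned cells had a UMI in AngII+HS, 71.2% against 87.0% in Control for Eln and 90.8% against 98.7% for Mgp. The members past 2-fold were thus fibronectin, fibulin 5, fibrillin 1, collagens, periostin, Ltbp2 and Ltbp3, while elastin and Ltbp4, of the same family as Ltbp2 (1497 and 1106 CPM, -0.44), lay inside 2-fold. The collagen genes Col1a2 and Col3a1 did not stand over the background, at 366 and 329 CPM in AngII+HS with T and B cells there at 183 and 178 CPM.

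The collagen IV chains went in opposite directions. Col4a1 and Col4a2, which form the common collagen IV network, were at 207 and 518 CPM (log2 ratio 1.32, 1.09 to 1.56) and at 85.2 and 248 CPM (1.54). Among all 540 cells Col4a1 was at 0.82 and Col4a2 at 1.02, and with Gja5 left out of the arterial sum at 0.73 and 0.80. Col4a3 and Col4a4, chains of the specialised network found in kidney and some other basement membranes, were at 42.6 and 7.60 CPM (-2.49) and at 105 and 25.3 CPM (-2.05), and are not on the basement membrane list. Col18a1, the precursor of endostatin, was at 102 and 352 CPM (1.79, and 0.88 in those of the 540 cells with a Cytl1 UMI), and the collagen-binding protein Sparc at 803 and 2192 CPM (1.45, 1.33 to 1.57). Sparc was seen in 47.7% of thinned Control cells and 77.7% of thinned AngII+HS cells, against 1.74% and 17.4% of T and B cells.

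Markers of fibroblasts moved with these genes. Of 7 such markers measured, 5 were past 2-fold higher, with a summed level of 508 and 1333 CPM (T and B cells 217 and 720 CPM). The most abundant was the collagen gene Col1a2 at 55.0 and 366 CPM, and none of the listed markers was at 0. Dcn, which the rule caps, had a UMI in 15.9% of all Control members and 37.3% of all AngII+HS members. When all 540 cells were held to Dcn, Myh11 and Ptprc at 0, the median of the elastic and interstitial list was -0.04, against 0.49 for all 540 cells. Fn1 itself stayed between 1.02 and 1.65 over 19 alternative choices, Col8a1 between 1.22 and 1.93, Sparc between 0.80 and 1.45 and Fbln5 between 0.63 and 1.51. The part of fibroblast RNA in the list was not tested.

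Genes of disturbed flow and inflammation were higher as a list, 8 of 16 past 2-fold and none lower (median 0.92), with 5 higher and 1 lower in all 540 cells (0.55). The list summed to 4546 and 6905 CPM in the arterial cells and to 623 and 4050 CPM in T and B cells. Thbs1, thrombospondin 1, was at 274 and 1323 CPM (log2 ratio 2.27, 2.09 to 2.46) with T and B cells at 6.69 and 393 CPM. The neutrophil-attracting chemokine gene Cxcl1 was at 172 and 579 CPM (1.75), with T and B cells at 16.7 and 190.2 CPM, and the gelatinase Mmp2 at 58.6 and 156 CPM (1.41). Cxcl2 (57.7 and 576 CPM, 3.32) and Ccl2 (7.99 and 146 CPM, 4.19), chemokines for neutrophils and monocytes, stood below their T and B cell levels in AngII+HS, which were 2413 and 331 CPM. Markers of the cells these chemokines attract moved with the list. Of 2 macrophage and 2 neutrophil markers with 50 or more UMIs all were past 2-fold higher, Spp1 and S100a9 being the most abundant. Summed macrophage markers were at 32.0 and 256 CPM (T and B cells 137 and 1377 CPM) and summed neutrophil markers at 21.3 and 256 CPM (T and B cells 11.7 and 1876 CPM, with Retnlg and Cxcr2 at 0 in Control), and their part in the result was not tested. The vasoconstrictor gene Edn1, endothelin 1, was at 454 and 768 CPM (0.76, 0.59 to 0.93), seen in 24.7% and 44.6% of thinned cells and in 0 and 0.593% of T and B cells. Adhesion molecules of this list did not share the direction in the members: Vcam1 was at 1325 and 916 CPM (-0.53) and Icam1 at 652 and 546 CPM (-0.26). The rule caps Selp, itself an adhesion molecule. Among cells past the arterial sum without Gpihbp1, that cap had removed 234 of 549 in Control and 247 of 472 in AngII+HS. Its part in these 2 ratios was not tested.

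Cxcl12, the chemokine that holds CXCR4-bearing cells, was the gene furthest above Control among those over the background with 200 or more UMIs, at 69.2 and 631 CPM (78 and 498 UMIs, log2 ratio 3.19, 2.84 to 3.55). A UMI was seen in 45 of 312 and 77 of 193 cells, 1 cell held 112 of the 498 UMIs, and the ratio was 2.53 with cells weighted equally. Its scavenging receptor Ackr3 was at 305 and 120.3 CPM (-1.34, -1.69 to -1.01). Next highest were Plk2, a polo-like kinase (51.5 and 199 CPM, 1.95), and Gpc6, a glypican (113 and 410 CPM, 1.86). Also past 2-fold higher were Frzb, a secreted Wnt antagonist (59.5 and 179 CPM, 1.59), Slc8a1, the sodium-calcium exchanger (143 and 389 CPM, 1.44), and the metalloprotease gene Adamts9 (118 and 362 CPM, 1.62). These calls did not all hold when the 540 cells were chosen differently. For Adamts9 the ratio was 0.03 when only cells with a Cytl1 UMI were taken, for Gpc6 0.80 without the highest Scrublet (doublet) scores and for Frzb 0.81 with Cytl1 left out of the arterial sum.

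In the 505 cells 3 of 20 measured arterial identity genes were past 2-fold higher and none lower (median 0.28). Over all genes 4.00% were higher and 3.56% lower, so none lower of 20 lies near that share. In all 540 cells 3 were higher and 1 lower (-0.18), the lower one being Acvrl1, a BMP receptor (-1.02). The rule itself chose members by arterial genes. Of the 540 cells, 3 Control and 42 AngII+HS members had no Cytl1 UMI and met the arterial sum through Gja5, Bmx or Efna5. The part of this in the list was not tested. Of 12 conduit genes 2 were higher and none lower (-0.22), while in all 540 cells 1 was higher and 3 lower (-0.74). The 3 higher identity genes were Cxcl12, the Notch target Hey1 (18.6 and 63.3 CPM, log2 ratio 1.76, and 0.94 in the 540 cells with Gja5 left out) and the netrin receptor Unc5b (12.4 and 46.9 CPM, 1.92). Unc5b did not stand over the background, with T and B cells at 3.34 and 3.52 CPM. Efnb2, ephrin-B2, was at 206 and 389 CPM (0.92, 0.67 to 1.17), and the Notch ligand Dll4 at 43.5 and 82.3 CPM (0.92). Gja4, connexin 37, was at 328 and 429 CPM (0.39), and Sox17, Notch1 and Mecom lay between -0.04 and 0.28. A different Notch ligand, Dll1, was past 2-fold lower at 108 and 50.7 CPM (-1.10), as was Dhh, desert hedgehog (104 and 41.8 CPM, -1.31).

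Genes of endothelium in general depended on the cells taken. Of 21 measured, 1 was past 2-fold higher and none lower in the 505 cells (median -0.22), and none was higher and 6 lower in all 540 (-0.59). Sox18, an endothelial transcription factor, had 432 and 153 UMIs (383 and 194 CPM, log2 ratio -0.98, -1.26 to -0.72), just within 2-fold, and was past it in all 540 cells (-1.50). The angiopoietin receptor Tek was at 513 and 285 CPM (-0.85) and the phosphatase Ptprb, which acts on it, at 2926 and 1885 CPM (-0.63). Vwf was at 1023 and 851 CPM (-0.26) and the claudin Cldn5 at 671 and 733 CPM (0.13). Higher were the TGF-beta co-receptor Eng (325 and 595 CPM, 0.87) and the VEGF receptor Kdr (23.1 and 60.8 CPM, 1.40), of which Kdr alone passed 2-fold, on 26 and 48 UMIs. In all 540 cells Kdr was at 0.91, and at 0.38 with Gja5 left out of the arterial sum. Of 30 junction genes 1 was higher and 1 lower (median -0.09; in all 540 cells 1 and 4, -0.48), the gap junction gene Gja1 (14.2 and 113 CPM, 2.99) and the plakin Ppl (59.5 and 8.87 CPM, -2.75).

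Genes linked to endothelial-to-mesenchymal transition, in which endothelial cells take on mesenchymal genes, were past 2-fold higher in 5 of 13 (median 0.79), and none was lower. S100a4, a calcium-binding protein, was at 92.3 and 584 CPM (log2 ratio 2.66) with T and B cells at 303 and 348 CPM. Of its 461 AngII+HS UMIs 171 lay in 1 cell, and with cells weighted equally the ratio was 1.62. Tagln, an actin-binding protein of smooth muscle, was at 209 and 565 CPM (1.43) with T and B cells at 179 and 184 CPM. The smooth muscle actin gene Acta2 was at 431 and 661 CPM (0.62) and at -0.03 with cells weighted equally, and its T and B cell level was 403 and 270 CPM. Vim, the most abundant of the list, was at 2026 and 2537 CPM (0.32), and the repressor gene Zeb2 at 87.0 and 182 CPM (1.07), below its T and B cell level of 176 and 446 CPM. Of 7 smooth muscle markers 1, Tagln, was past 2-fold, with a summed level of 1070 and 1599 CPM (T and B cells 801 and 623 CPM), while over all 540 cells none was higher and 2 were lower (median -0.46), with sums of 1089 and 1089 CPM and Tagln at 0.73. Pericyte markers summed to 162 and 252 CPM and lymphatic markers to 112 and 179 CPM, with none of the 2 and 1 measured past 2-fold. The fibroblast markers given above, 5 of 7 past 2-fold higher (median 1.75), moved with this list too, and their part in it was not tested. S100a4, Tagln and Acta2 were thus also found in lymphocytes, in AngII+HS below the pooled arterial level. For S100a4 the AngII+HS order turned with arterial cells weighted equally, at 256 CPM against the pooled 348 CPM of T and B cells. After thinning, 15.2% of AngII+HS arterial cells and 20.4% of AngII+HS T and B cells had an S100a4 UMI. The part of free RNA in these 3 genes was not tested. In all 540 cells 7 of 15 genes of the list were higher (0.73), and the median was 0.37 with the highest Scrublet scores removed.

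**Figure D4:**
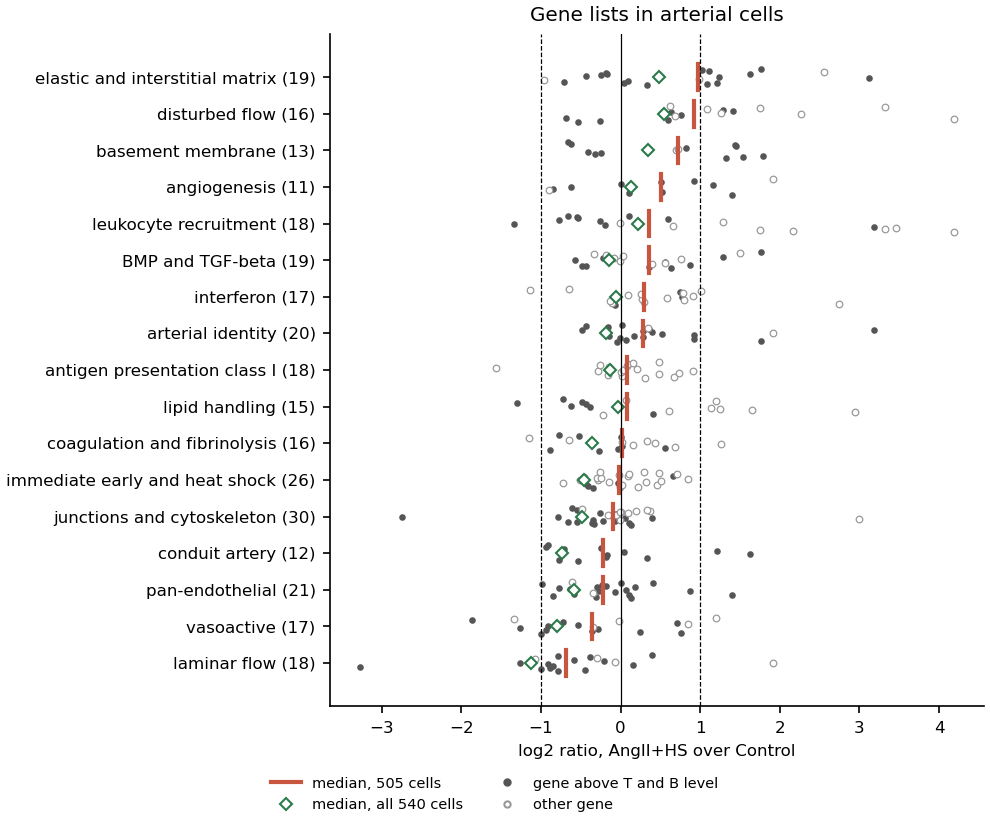
Each dot is 1 gene of a list in the 505 arterial endothelial cells, placed by its log2 ratio of AngII+HS over Control, filled where the gene stands over the T and B cell background. Red bars mark the median of each list in the 505 cells and green diamonds its median in all 540, with laminar flow genes at -0.68 and -1.13 and elastic and interstitial matrix genes at 0.98 and 0.49.

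Further genes past 2-fold lower in AngII+HS are given singly, picked after their values were seen. Cavin2, a coat protein of caveolae, the membrane pits abundant in endothelium, had 1075 and 306 UMIs (954 and 388 CPM, log2 ratio -1.30, -1.49 to -1.12), and was seen in 52.3% and 34.2% of thinned cells. Its partners Cav1 (1072 and 821 CPM, -0.39) and Cavin1 (707 and 523 CPM, -0.43) stayed within 2-fold. The calcium-activated potassium channels Kcnn3 (50.6 and 13.9 CPM, -1.86) and Kcnn4 (89.7 and 35.5 CPM, -1.34), which set membrane voltage during endothelium-dependent relaxation, were both past 2-fold lower. Kcnn4 did not stand over the background, with T and B cells at 114 and 63.2 CPM, and was at -0.67 in the 540 cells with Dcn, Myh11 and Ptprc at 0. Past 2-fold lower too were the calcium pump Atp2b2 (154 and 49.4 CPM, -1.64) and the sodium bicarbonate cotransporter Slc4a4 (312 and 106 CPM, -1.55). Of 17 vasoactive genes 3 were lower and 1 higher (median -0.36), in all 540 cells 8 lower and 4 higher of 19 (-0.79), and Ace, the angiotensin-converting enzyme, was at 421 and 328 CPM (-0.36). The higher one was Apoe, a lipid carrier, at 1334 and 3068 CPM (1.20), with T and B cells at 169 and 966 CPM. In the 540 cells it was at 1.02, and at 0.81 with Cytl1 left out of the arterial sum.

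Also lower were the adhesion gene Amigo2 (162 and 45.6 CPM, log2 ratio -1.82), the laminin receptor Bcam (454 and 171 CPM, -1.41), the tetraspan protein Emp2 (540 and 205 CPM, -1.39) and the secreted F-spondin gene Spon1 (173 and 59.5 CPM, -1.54). Myrip, which links Weibel-Palade bodies to the cytoskeleton, was at 306 and 106 CPM (-1.53), and Plac9 at 1567 and 655 CPM (-1.26). The epithelial keratin gene Krt80 was at 92.3 and 17.7 CPM (-2.38). Each of these 7 stood over the T and B cell background. Other surface genes went the opposite way, the adhesion molecule Mcam to 200.2 from 89.7 CPM (1.16) and the sialomucin Emcn to 465 from 209 CPM (1.15, and 0.60 in all 540 cells). Mitochondrially encoded mRNAs were lower as well, for example mt-Atp6 at 13603 and 4701 CPM (-1.53), but T and B cells showed the same, at 7640 and 3241 CPM, so this was not particular to the arterial cells.

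Other lists are given more briefly. Of 18 MHC class I genes none was past 2-fold higher and 1 was lower (median 0.09), with H2-K1, a class I heavy chain, at 1930 and 3080 CPM (log2 ratio 0.67). All 4 measured MHC class II genes were higher (2.61), as were 4 of 5 in all 540 cells (1.82). Cd74, the invariant chain, was at 74.6 and 722 CPM, but T and B cells carried 1394 and 2681 CPM of it. Neither the 17 glycolysis genes (median 0.08) nor the 26 immediate early genes (-0.01) nor the 15 genes of endoplasmic reticulum stress (-0.10) had a member past 2-fold. In all 540 cells 7 of 20 glycolysis genes were higher and 1 lower (0.64), and of 26 immediate early genes none was higher and 1 lower (-0.46). Of 17 interferon genes 2 were higher and 1 lower (0.29), and of 16 coagulation genes 1 and 1 (0.01). Among all 540 cells 2 of 18 interferon genes were higher and none lower (-0.05), and of 16 coagulation genes 1 was higher and 4 lower (-0.36). Of 18 genes of leukocyte recruitment 7 were higher and 1 lower (0.36), while in all 540 cells 6 were higher and 3 lower (0.22). In T and B cells the list summed to 518 and 3602 CPM against 3955 and 4721 CPM in the arterial cells. T and B cell markers themselves came to 2.66 and 1177 CPM in the arterial cells, most of it Ighm, of which 887 of 895 UMIs lay in the single cell rich in Igkc.

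The treated and control levels were set beside those of capillary and venous endothelium. Fn1 and Fbln5 were far higher in the members than in either (Fn1 in capillary cells 86.3 and 154 CPM, in venous cells 119 and 108 CPM, Fbln5 35.7 and 83.5 CPM and 119 and 39.9 CPM). The log2 ratio of Fn1 was 0.80 larger in arterial than in capillary cells (counting interval of the difference 0.32 to 1.27) and 1.82 larger than in venous cells (0.97 to 2.66). For Fbln5 the difference from venous cells was 2.83 (1.93 to 3.73), while that from capillary cells was 0.01 (-0.70 to 0.73). Sparc and Col4a1 were already abundant in capillary cells (2141 and 2881 CPM, 1385 and 1851 CPM), and in venous cells they were at 456 and 1507 CPM and 376 and 1097 CPM. Their ratios were larger in arterial than in capillary cells by 1.02 (0.87 to 1.17) and 0.91 (0.64 to 1.17), and the differences from venous cells, -0.26 (-0.70 to 0.17) and -0.20 (-0.72 to 0.31), spanned 0. Counting error is the only error these intervals hold.

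Cxcl12 was compared in the same way. In capillary cells it was at 766 and 918 CPM and in venous cells at 139 and 48.2 CPM, and the arterial members were at 69.2 and 631 CPM, the latter 369 CPM with cells weighted equally, below the capillary level in both libraries. Its ratio was 2.92 larger than in capillary cells (2.54 to 3.30) and 4.74 larger than in venous cells (3.85 to 5.63). The arterial minus the capillary ratio was -0.54 for Klf2 (-0.71 to -0.36), -0.56 for Nos3 (-1.03 to -0.10) and -0.57 for the caveolar gene Cavin2 (-0.81 to -0.32), lower in arterial cells each time. Against venous cells the difference for Klf2 was -0.06 (-0.41 to 0.29) and for Nos3 0.02. Cavin2 was at -1.47 in venous cells (683 and 246 CPM) and at -1.30 in arterial cells, so its fall was not larger in arterial than in venous cells. Of the 92 lower genes, 39 had 20 or more UMIs in venous cells, and 24 of those were past 2-fold lower there and none higher, where 11.0% of all 7486 genes measured in venous cells were lower. In capillary cells 4 of 42 were lower and 2 higher, where 3.88% of all genes were lower and 8.40% higher. Of the 60 higher genes, 9 of 44 measured were also past 2-fold higher in capillary cells and 2 lower, and in venous cells 7 of 41 were higher and 9 lower, where 19.9% of all genes were higher.

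**Figure D5:**
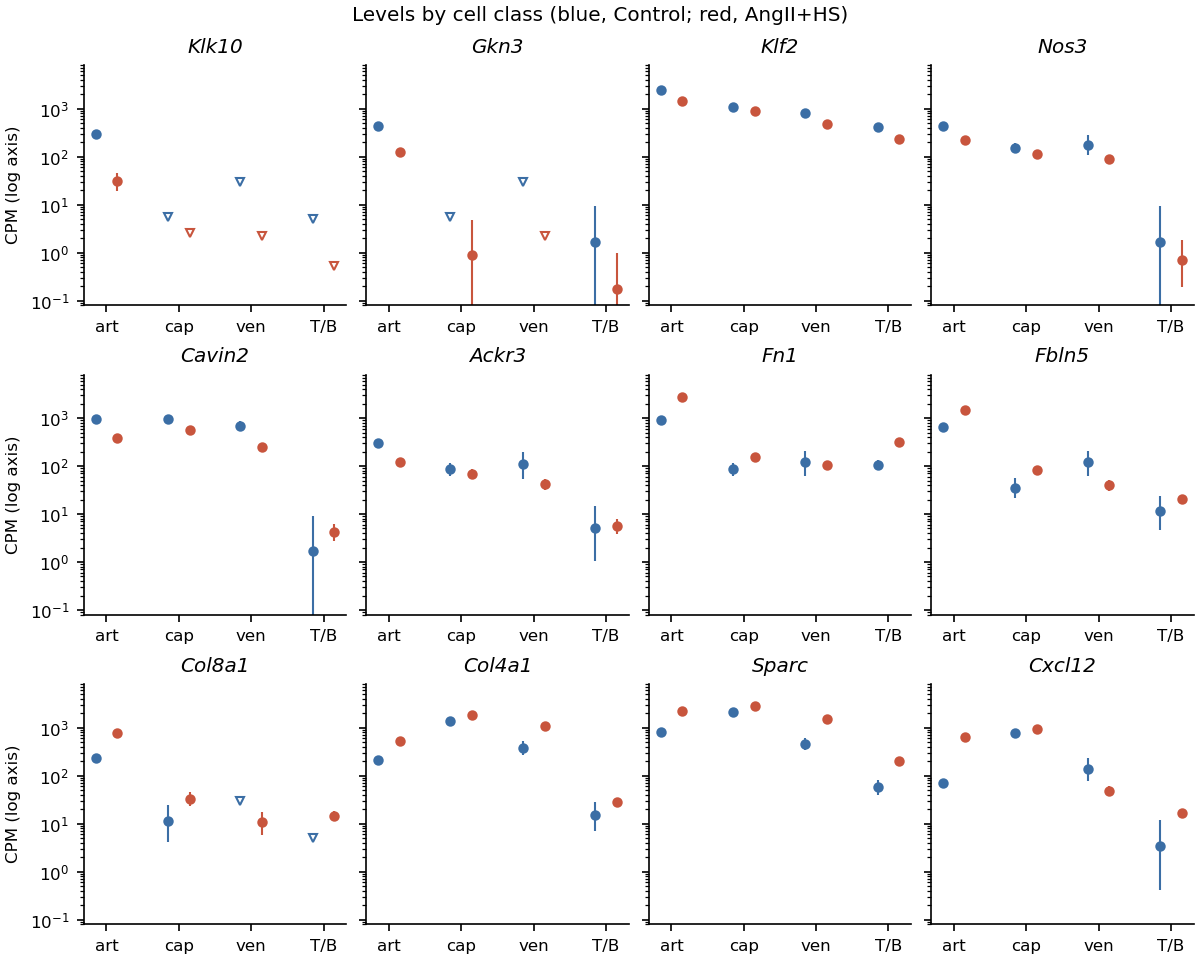
CPM on a log axis for 12 genes in arterial, capillary, venous and T and B cells of the Control and AngII+HS libraries, with vertical lines for 95% counting intervals and open triangles for the limit that a count of 0 allows. Klk10 and Gkn3 appear in arterial cells and hardly elsewhere, and arterial Cxcl12 lies below the capillary level in both libraries, by less in AngII+HS.

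The members were not uniform. In thinned cells the 12 conduit genes gave a median of 23 UMIs per cell in Control (quartiles 15 and 31) and 20 in AngII+HS (10 and 30), and 97.0% and 92.4% of cells had 5 or more. Venous or capillary genes (Nr2f2, Lrg1, Plvap, Cd36, Fabp4 and Aqp1, 5 UMIs or more together) marked 53 of 312 Control members (17.0%) and 53 of 193 AngII+HS members (27.5%). The comparison was repeated within each kind as a description, since the genes had been chosen for their ratio in the same cells. In cells without these genes, all 59 measurable genes of the 60 higher and all 90 of the 92 lower kept their direction, and in cells with them 53 of 56 and 74 of 78 did. Fn1 had log2 ratios of 1.61 without and 2.45 with the venous or capillary genes, Klk10 -3.31 and -1.88, and Gkn3 -1.57 and -1.03. The 3 genes thus had the same direction in both kinds of cell, although the counting intervals of Gkn3 in the cells with venous or capillary genes (-2.41 to 0.25) spanned 0.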

How the data were processed

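Single cells of abdominal aorta were profiled with a droplet 3′-end kit. The deposited matrices hold raw UMI counts per gene and cell barcode, which the authors made with Cell Ranger. The labels name mm10 as the genome build and the study's methods name GRCm39, and no coordinate of the deposited files was used. Promoter sequences came from a RefSeq table of GRCm38.p6, the assembly also called mm10. The 2 deposited barcode lists were recorded under each other's sample, so each matrix was taken with the list of its own length, and the groups were taken from the record of the matrices. The authors removed doublets in their own analysis, and here none was removed in the reported counts (Scrublet, run in scanpy 1.11.5, was an alternative).

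Cells had 500 or more UMIs, 200 or more genes and under 20% mitochondrial UMIs. Counts of each group's member cells were summed and divided by their total to give CPM (11288 and 24560 cells in all, median 7576 and 3550 UMIs, before the rule). Genes with 50 or more UMIs in both libraries together were compared, the 14 genes of the rule left out, together with the 10 neuron and leukocyte genes where members over those limits were left out. A log2 ratio past 1 was called higher or lower, and its exact 95% interval came from the binomial split of the 2 counts given the library totals. Differences of log2 ratios carry a normal interval from the same counts, with 0.5 added to each. PCR duplicates are collapsed by UMI, and no interval covers the spread between mice. List medians were taken over members with 50 or more UMIs, with a count of 0.5 added. Named genes were the 15 highest and 15 lowest with 200 or more UMIs and a UMI in 10% of cells of a library, the same over the T and B cell background, and the most abundant and the past-2-fold members of each list. T and B cells had 3 or more UMIs of Cd3d, Cd3e, Cd3g, Cd79a and Cd79b and no Cdh5 or Egfl7. The ratio and thinning steps were tested on simulated data. Python 3.11.15, numpy 2.4.6, scipy 1.17.1, pandas 2.3.3, matplotlib 3.10.9, R 4.3.3 and edgeR 4.0.16 (TMM factors only) were used. The members and the gene lists were chosen with earlier results of these data known.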

Additional observations from a re-analysis of the deposited data

Results flagged for a closer look

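The genes compared here were those named over the T and B cell background and the leading members of each list, as far as they were past 2-fold. In 13 cases among them a gene's log2 ratio of AngII+HS over Control had opposite signs in the 505 arterial endothelial cells and in another endothelial class, with both counting intervals clear of 0. With 1 library per group the difference was not tested. Among genes higher in arterial cells, Cxcl12 (3.19) was at -1.52 in venous cells, Fbln5 (1.21) at -1.57, Gpc6 (1.86) at -2.55 on 4 and 9 UMIs, Tagln (1.43) at -1.36, Adamts9 (1.62) at -0.34 and Apoe (1.20) at -0.46. The Control venous cells number 24, so these venous ratios rest on few cells.

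Against capillary cells, Cxcl1 (1.75 in arterial cells) was at -0.35, Apold1 (1.33), an endothelial early response gene, at -0.24, Hmox1 (1.92) at -0.28, Kdr (1.40) at -0.46 and Rgcc (1.51) at -0.16. Without the members that carried venous or capillary genes, Rgcc was at 0.51 in arterial cells. Kdr and Hmox1 stayed far more abundant in capillary cells in both libraries, at 1013 and 737 CPM and at 604 and 498 CPM, than in arterial cells, at 23.1 and 60.8 CPM and at 20.4 and 77.3 CPM. Going the other way, Plac9 (-1.26 in arterial cells) was at 1.19 in capillary cells. Nt5e, the ecto-nucleotidase that makes adenosine, was at -1.15 in arterial cells (146 and 65.9 CPM), while capillary cells had 0 of its UMIs in Control and 25 in AngII+HS. The 13 are not all such cases. Outside that set, Mt2, a metallothionein gene, was at -1.63 in arterial and 0.84 in capillary cells (0.35 to 1.35), Fbn1, fibrillin 1, at 1.09 in arterial and -2.02 in venous cells, and Bnc2, a zinc finger gene, at 2.08 and -2.72.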

How the results depend on the processing

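No paired analysis was possible because each group had 1 library. In all 540 cells 969 genes were higher and 393 lower. The higher and lower counts were 342 and 216 with Efna5 left out of the marker sum, 181 and 161 with Dcn, Myh11 and Ptprc at 0, 175 and 166 with the highest Scrublet scores removed, 87 and 81 with cells thinned to 1000 UMIs, 324 and 238 in cells with a Cytl1 UMI, and 316 and 217 in cells with conduit genes. They were 1764 and 657 with 20 UMIs in place of 50, 524 and 258 with 100, and 177 and 189 without genes near the T and B cell level. With each cell weighted equally 240 were lower. The following were added after seeing the data. Without the neuron- and leukocyte-rich members the counts were 237 and 211, then 271 and 207 with equal weights, 83 and 74 thinned, 229 and 177 with Cytl1 left out, 189 and 189 without members with venous or capillary genes, and 60 and 92 without genes near the T and B cell level. Fewer cells and genes were tested in most of these, and otherwise the cause was not tested.

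The arterial share in AngII+HS (14.0% of endothelial cells) was 12.0% at a marker sum of 5 or more, 12.1% without Efna5, 11.0% without Cytl1 (Control 23.7% in place of 34.3%) and 12.0% without the neuron- and leukocyte-rich members. Other alternatives, among them TMM factors and CPM without mitochondrial genes, left counts within 1.5 times and shares within their interval.

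Of 182 named genes, 110 were past 2-fold in the 540 cells, and 51 of them were past it under each of the 19 alternatives that gave them a value (10 to 19 of them, since a gene with too few UMIs or left out gave none), including Klk10 (-4.30 to -2.89), Gkn3 (-2.42 to -1.57), Cavin2 (-1.84 to -1.01), Ackr3, Fn1 (1.02 to 1.65), Col8a1 (1.22 to 1.93), Ltbp2 (2.30 to 3.71, 18 alternatives) and Cxcl12 (1.82 to 3.41). Adamts9 ranged from 0.03 to 1.92. Others past 2-fold in the 505 cells fell within it under at least 1 alternative, among them Zeb2 (0.55), Apold1 (0.62), Tagln (0.62), Fbln5 (0.63), Ltbp3 (0.66), Mcam (0.66), Sparc (0.80), Abca1 (0.88), Emp2 (-0.93), Nt5e (-0.77) and Ptgs1 (-0.51). Npy had no Control UMI and so no ratio. Direction was the same in 2011 of 2033 pairs of gene and alternative. The 22 reversals were in 8 genes. With Cytl1 left out, Aqp1 was at 0.31, Lrg1 at 1.40 and Nr2f2 at 0.44, and, without the neuron- and leukocyte-rich members as well, at 0.58, 1.75 and 0.75. Stmn2, a neuronal gene, was at -0.092 with Dcn, Myh11 and Ptprc at 0, -0.24 after Scrublet, -0.29 with equal weights, -0.39 thinned, -0.68 with conduit genes and -0.50 without the neuron- and leukocyte-rich members, and then -0.58 with equal weights, -0.37 thinned, -0.52 without Cytl1 and -0.98 without venous or capillary genes. Gpi1 was at -0.21 after Scrublet, -0.068 thinned and, without the neuron- and leukocyte-rich members, -0.015 with equal weights. Pgam1 was at -0.13 without the neuron- and leukocyte-rich members and those with venous or capillary genes. Egr3 was at 0.15 thinned and Rtn1 at -0.0016 with Dcn, Myh11 and Ptprc at 0. The cause was not tested. Of 475 list medians 77 left the interval around the median of the 540 cells. Taking only cells without a Cytl1 UMI was not run, since 3 Control cells had none. Depth limits rarer genes: arterial cells held 1126592 and 789406 UMIs, and a count of 0 allows up to 3 UMIs in either.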

Other observations

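Some lists of receptors and lipid genes were measured in the 505 arterial endothelial cells but belong to no comparison above. Of 15 lipid handling genes 5 were past 2-fold higher and 1 lower (median log2 ratio 0.08), against 6 higher and 4 lower of 16 in all 540 cells (-0.03), among them the cholesterol exporter Abca1 at 111 and 263 CPM (1.25) and the fatty acid-binding protein Fabp5 at 56.8 and 437 CPM (2.94). For Fabp5, 208 of 345 AngII+HS UMIs lay in 1 cell, the ratio was 1.98 with cells weighted equally, T and B cells were at 21.7 and 136 CPM, and over the alternatives it ran from 0.56 (highest Scrublet scores removed) to 5.03. Of 19 BMP and TGF-beta genes 3 were higher and none lower (0.36), and of 11 angiogenesis genes 3 were higher (0.51). Among all 540 cells 2 of the 19 BMP and TGF-beta genes were higher and 2 lower, with a median of the opposite sign (-0.14), and of 14 angiogenesis genes 4 were higher and 2 lower (0.13). Unc5d, another netrin receptor gene, had 4 UMIs in Control and 46 in AngII+HS (3.55 and 58.3 CPM).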
